A study of Drosophila melanogaster with 14 samples.

Results

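Before hormone, 700 regions of the Drosophila genome held a peak of CP190 and a peak of BEAF-32 and no peak of Su(Hw) or dCTCF. They were chosen by the 4 untreated peak lists: the peaks of all 4 proteins on the chromosome arms X, 2L, 2R, 3L, 3R and 4 were pooled, peaks sharing at least 1 bp were merged, and merged regions with only these 2 proteins were kept. The pooled lists gave 11734 regions, so the 700 made up 5.97% of them. They made up 12.4% of the 5650 regions with CP190, 16.9% of the 4131 with BEAF-32 and 25.6% of the 2730 with both. The series used chromatin immunoprecipitation with sequencing (ChIP-seq) in Kc167 cells, a line derived from fly embryos and kept in serum-free medium. Antibodies to CP190, Su(Hw), dCTCF and BEAF32B were each used on cells without added hormone (0 h) and on cells given 20-hydroxyecdysone at 5e-07 M for 3 h or 48 h. All groups are of this 1 line, and each protein and time had 1 library, so no difference between times or between kinds of region could be tested. Intervals are 95% Wilson intervals, which cover counting error only.

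Insulator proteins mark the borders of chromatin domains and can keep an enhancer from acting on a promoter beyond them. CP190 has a BTB domain and zinc fingers and reaches most of its sites through partners that read the DNA sequence. BEAF-32, Su(Hw) and dCTCF are such partners. BEAF-32 was found through the scs' boundary beside a heat-shock gene, recognises clusters of a short motif through its BED finger, and is known for lying close to the promoters of housekeeping genes. 20-hydroxyecdysone is the steroid of moulting and metamorphosis, and acts through the EcR and USP receptor pair. No annotation or genome sequence of the lists' build was used here, so the regions are named by position alone. The sequence names are those of Release 5, and positions count from 1.

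On the arms the untreated lists held 5720 CP190 peaks, 7951 Su(Hw) peaks, 4003 dCTCF peaks and 4187 BEAF-32 peaks. The 3 h lists held 6254, 8492, 4085 and 5882, and the 48 h lists 5667, 8329, 3333 and 5896, in the same order. The BEAF-32 list at 0 h was thus the shortest of its 3, and whether this bears on the regions chosen was not tested beyond the alternative with the 3 h list given with the results at 48 h. The lists give no counts, so the read depth behind a peak is unknown.

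In nearly all of the 700 regions the make-up was 1 peak of each protein. This held for 688 regions, while 9 had 2 BEAF-32 peaks, 2 had 2 CP190 peaks and 1 had 2 of both. Together they took in 703 CP190 peaks, or 12.3% of the untreated arm list, and 710 BEAF-32 peaks, or 17.0%. The merged regions had a median width of 1077 bp, with the middle 50% between 919 and 1248 bp, beside a median of 895 bp over all 11734 regions. Regions with CP190 and Su(Hw) only had a median width of 1026 bp, and those with CP190 and dCTCF only 1064.5 bp.

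The peaks of CP190 and BEAF-32 lay on top of each other. The median CP190 peak was 913.5 bp wide and the median BEAF-32 peak 919 bp. In the 688 regions with 1 peak of each, the median distance between the peak centres was 71 bp, and 92.0% (633 regions) had centres within 250 bp. The BEAF-32 peak lay wholly inside the CP190 peak in 208 of them, the CP190 peak inside the BEAF-32 peak in 227, and the peaks overlapped in part in 253. The other 1951 regions with 1 CP190 and 1 BEAF-32 peak, which also held Su(Hw) or dCTCF, had a median centre distance of 75.5 bp. The close placement was thus shared with the regions that also held those proteins.

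The narrowest region, 2L:17824755-17825263, was 509 bp wide, and the widest, 2R:3151027-3156914, was 5888 bp. Just inside the overlap threshold were X:8335936-8337402, where the peaks shared 27 bp, and 2R:19242244-19243411, where they shared 80 bp. Just outside it, on 3L, the CP190 peak 3L:8492483-8493590 lay 4 bp from the BEAF-32 peak 3L:8493595-8495458. The next nearest such pair, on X, had its CP190 peak at X:4595965-4596740 and its BEAF-32 peak at X:4596762-4597241, with 21 bp between them. Of the 700 regions, 36 had an untreated Su(Hw) peak less than 1 kb away and 26 a dCTCF peak, so the absence of these partners refers to the region itself.

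CP190 was weak in these regions and BEAF-32 was not. The authors' score per peak was turned into a percentile within its own arm list, with 100 at the top. A large block of peaks in each list scored exactly 3100, and a few scored higher, 38 of 5720 for CP190 and 21 of 4187 for BEAF-32 at 0 h. All scores from 3100 up were treated as tied and are called the ceiling here, so a ceiling peak stood at percentile 90.6 for CP190 and 82.1 for BEAF-32. The CP190 peaks had a median percentile of 26.4, with the middle 50% between 13.1 and 42.7. The BEAF-32 peaks had a median of 53.7, with the middle 50% between 24.0 and 82.1. These untreated scores belong to the lists that chose the regions and are given as a description.

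Only 3 of the 700 CP190 peaks (0.429%) reached the ceiling, beside 18.9% of the whole CP190 arm list, and 4 stood above percentile 75. Scores below 200 were held by 264 CP190 peaks (37.7%). Of the BEAF-32 peaks, 267 (38.1%) reached the ceiling, beside 35.8% of the whole BEAF-32 arm list, and 124 (17.7%) scored below 200. In 501 regions (71.6%) BEAF-32 stood at a higher percentile of its list than CP190 did of its own. Across the 700 regions, Spearman's rho between both percentiles was -0.06. It was -0.19 over the other 2030 regions with CP190 and BEAF-32. These points share their pair of libraries, so the values are descriptions.

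**Figure D1:**
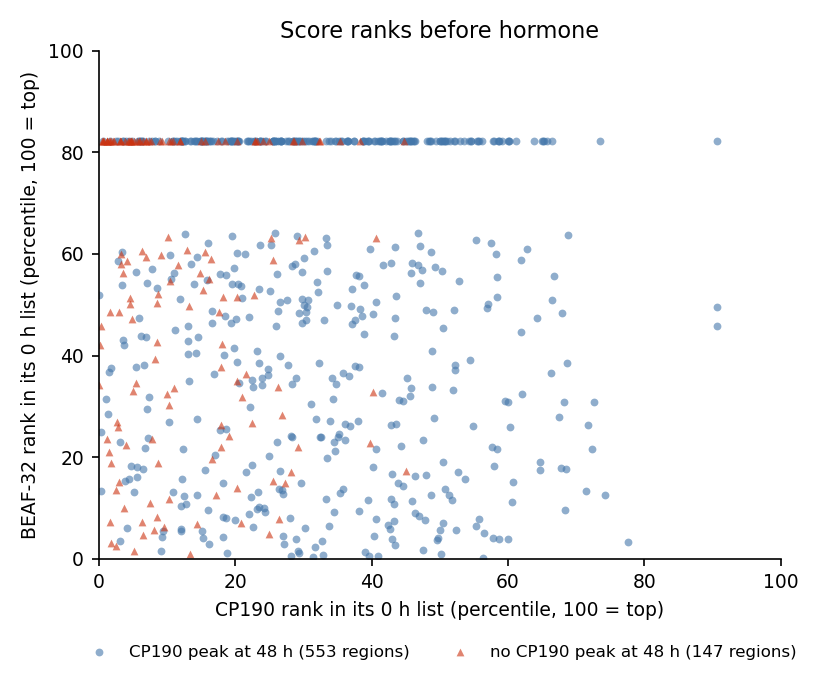
Score percentile of CP190 (horizontal axis) and of BEAF-32 (vertical axis) within their own untreated arm lists, 1 point per region, for the 700 regions with CP190 and BEAF-32 only; the row of points at 82.1 is the tied BEAF-32 score ceiling. The 147 regions without a CP190 peak at 48 h (triangles) lie at CP190 percentiles up to 45.1 and across the range of BEAF-32.

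For comparison, CP190 had a median percentile of 42.6 in the 1433 regions with CP190 and Su(Hw) only and of 54.5 in the 240 regions with CP190 and dCTCF only. BEAF-32 had a median percentile of 39.0 in the 1127 regions where it was alone. In the untreated lists, CP190 with BEAF-32 only was therefore the lowest-ranked of these 3 kinds for CP190, while BEAF-32 ranked higher with CP190 than alone. A low CP190 rank was shared with regions where CP190 was alone. There 305 of 607 stood at percentile 25 or below, beside 329 of the 700.

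The regions in which both proteins ranked high were few. The region with the highest lower percentile, 2R:11419228-11420428, had CP190 and BEAF-32 at the ceiling at 0, 3 and 48 h and no peak of Su(Hw) or dCTCF at any time. At 2R:13401259-13402392 the CP190 score was 1929.82 at 0 h, 2318.94 at 3 h and 1811.32 at 48 h, with BEAF-32 at the ceiling throughout and a dCTCF peak at 48 h (score 101.36). Scores rank peaks only within their list, so such values stand side by side and no change is read from them. At 3L:3147675-3149535 CP190 scored 1247.18, 1824.12 and 771.92, and at 3L:9616793-9617754 it scored 1206.49, 1236.45 and 534.0, again with BEAF-32 at the ceiling at each time. The first of these also had a dCTCF peak at 3 h (score 107.66). The fifth, 2R:4837915-4840060, had CP190 scores of 1175.78, 1172.15 and 809.9, a BEAF-32 peak at the ceiling at each time, and weak peaks of Su(Hw) (score 102.98) and dCTCF (score 132.15) at 3 h. All 5 kept both proteins throughout, and 3 of them held another of the proteins at a treated time.

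The 700 regions were spread evenly over the large arms. There were 166 on 3R, 138 on 3L, 136 on X, 134 on 2R and 123 on 2L, and 3 on the small arm 4. They made up between 5.81% (4.93 to 6.83) of all regions on X and 6.18% (5.24 to 7.27) on 2R, so the intervals of the 5 large arms overlapped. On arm 4 they were 3 of 84 regions (3.57%, 1.22 to 9.98). Counted over the stretch between the first and last peak of an arm, they numbered from 5.36 per Mb on 2L to 6.36 per Mb on 2R. In bins of 1 Mb on the 5 large arms the median was 6 regions and the highest count 15, in the bin from 10000001 to 11000000 on 2L. Only 3 of 122 bins held none, 2 of them at arm ends with few peaks of any kind. The third, from 26000001 to 27000000 on 3R, held 91 regions of other make-up.

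Neighbouring regions of this make-up lay a median of 88176.5 bp apart, with the middle 50% of gaps between 22636 and 230699 bp. Some were close: 210 of the 700 (30.0%, 26.7 to 33.5) had another such region less than 10 kb away, and 27 (3.86%) less than 1 kb. The nearest other region of this make-up lay at a median of 29391 bp, and the nearest of any make-up at 2392 bp. With 11734 regions against 700, a shorter distance follows from the counts. From all 11734, the nearest region of any make-up lay at a median of 2623 bp, and the gap between neighbours had a median of 5398.5 bp. The nearest untreated Su(Hw) peak lay at a median of 6611.5 bp and the nearest dCTCF peak at 7871 bp.

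The nearest neighbour often held BEAF-32 or CP190 too. It was BEAF-32 alone for 146 of the 700 (20.9%, 18.0 to 24.0), a kind that made up 9.60% of all regions. It was another region of the same make-up for 119 (17.0%, 14.4 to 20.0), beside 5.97% of all regions. It was CP190 alone for 85 (12.1%, 9.93 to 14.8), beside 5.17% of all regions. Su(Hw) alone was the nearest neighbour of 72 (10.3%, 8.25 to 12.8), although it made up 31.6% of all regions. Unbroken runs of the same make-up, with no other region between, were mostly short: 531 regions stood singly, 132 in runs of 2, 33 in runs of 3 and 4 in a run of 4.

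The run of 4, on 2L, shows how such neighbours can differ. At 2L:4830209-4831134 CP190 scored 117.11 at 0 h and had no peak at 3 or 48 h. At 2L:4837507-4838633 it scored 296.78 at 0 h, 640.98 at 3 h and 310.9 at 48 h. The third region, 2L:4846956-4848227, had CP190 scores of 203.24 at 0 h and 391.59 at 3 h and no peak at 48 h. The last, 2L:4882478-4883654, had 441.59, 840.74 and 678.37. BEAF-32 was at the ceiling in all 4 regions at 3 and 48 h, and neither Su(Hw) nor dCTCF had a peak in any of them. The regions with the 2 lowest CP190 scores at 0 h were thus those without CP190 at 48 h.

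**Figure D2:**
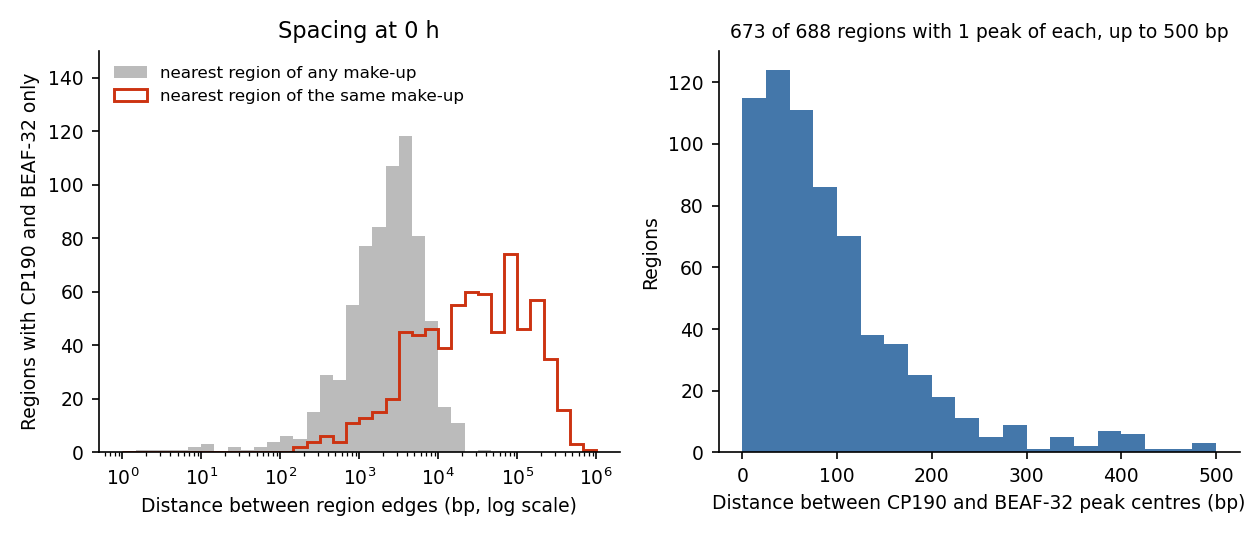
Left, distance in bp (log axis) from each of the 700 regions to the nearest region of any make-up (filled) and of the same make-up (line), with medians of 2392 and 29391 bp. Right, distance between the CP190 and BEAF-32 peak centres in the 673 of 688 regions with 1 peak of each where it was at most 500 bp, with most regions under 100 bp.

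After hormone, BEAF-32 was found again in more of these regions than CP190. At 3 h, 663 of the 700 (94.7%, 92.8 to 96.1) had a BEAF-32 peak and 650 (92.9%, 90.7 to 94.5) a CP190 peak. At 48 h, BEAF-32 was present in 660 (94.3%, 92.3 to 95.8), while CP190 was present in 553 (79.0%, 75.8 to 81.9). The 3 and 48 h lists took no part in the choice of the regions. Over all untreated regions with BEAF-32, the 700 included, 90.5% had it at 3 h and 90.1% at 48 h. Over all untreated regions with CP190, 96.4% had it at 3 h and 89.3% at 48 h. The CP190 shares of the 700 were thus below that background and the BEAF-32 shares above it, and neither difference was tested. The intervals left the background out but cover counting error only. The background was not taken at like rank: the median CP190 percentile was 26.4 in the 700 and 50.4 over all untreated regions with CP190. For BEAF-32 the medians were 53.7 and 50.6.

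Both proteins were present at all 3 times in 508 of the 700 regions (72.6%, 69.1 to 75.7), beside 82.9% of all untreated regions with both. In 370 of them (52.9% of the 700, 49.2 to 56.5) Su(Hw) and dCTCF were also absent throughout. The second most common state at 48 h, after CP190 with BEAF-32 alone (454 regions), was BEAF-32 alone (131 regions). At 3 h BEAF-32 alone was found in 41 regions and CP190 alone in 32. Only 4 regions at 3 h and 9 at 48 h had neither protein.

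**Figure D3:**
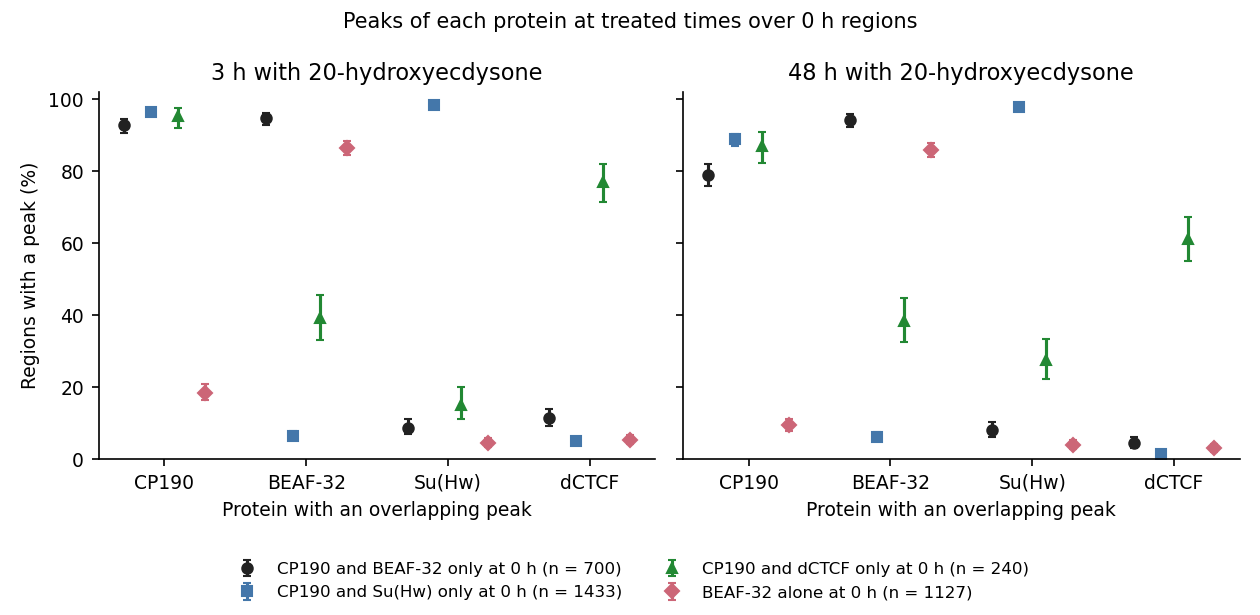
Share of regions (%) with an overlapping peak of each protein at 3 h (left) and 48 h (right), for the 700 regions with CP190 and BEAF-32 only and 3 other kinds of untreated region; bars are 95% Wilson intervals. The 700 regions (circles) had CP190 in 79.0% and BEAF-32 in 94.3% at 48 h.

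The regions without CP190 at 48 h mostly still had it at 3 h and kept BEAF-32. Of the 147, 113 (76.9%, 69.4 to 83.0) had a CP190 peak at 3 h, and 138 (93.9%, 88.8 to 96.7) had a BEAF-32 peak at 48 h. Over all 700 these shares were 92.9% and 94.3%. BEAF-32 was thus present about as often as in the 700 as a whole, and CP190 at 3 h less often. In all, CP190 was present at 0 and 3 h only in 113 of the 700 regions (16.1%), at 0 h only in 34, and at 0 and 48 h only in 16. BEAF-32 was present at 0 and 3 h only in 4 regions, at 0 and 48 h only in 1 and at 0 h only in 36. Its absence at one treated time thus nearly always came with its absence at the other.

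Among the regions that lacked CP190 at 48 h, the one with the highest untreated percentile was 3L:8949452-8950266. There CP190 scored 482.55 at 0 h and 459.95 at 3 h, and BEAF-32 scored 212.15, 2104.71 and 2134.97 at 0, 3 and 48 h. At 3L:19742081-19743691 CP190 scored 476.19 and 156.87 and was absent at 48 h, with BEAF-32 at the ceiling at each time. At 3L:327526-328495 the CP190 scores were 407.58 and 237.84, and BEAF-32 scored 2913.62 at 0 h and stood at the ceiling later. The next was 2L:21656862-21658217, with CP190 scores of 401.87 and 793.52 and a dCTCF peak at 3 h only (score 217.03). The fifth, 3L:21526404-21527211, had 394.89 and 518.71. The first of these stood at percentile 45.1 at 0 h, and no region above it lacked CP190 at 48 h.

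At 3 h the highest-ranked absence of CP190 was at 2L:21572650-21573799, with a score of 275.72 at 0 h and none later, where BEAF-32 scored 2856.29 at 0 h and reached the ceiling at 3 and 48 h. At 3R:14080663-14081772 CP190 scored 226.83 at 0 h, had no peak at 3 h and scored 109.02 at 48 h. Su(Hw) had a peak there at 3 h (score 133.25) and at 48 h (score 241.39). At 3L:4258949-4259754 CP190 scored 203.13 at 0 h only, and BEAF-32 scored 513.63, 2618.86 and 3070.41. The fourth, 2L:11568348-11568980, had CP190 at 191.7 at 0 h and 162.02 at 48 h with none at 3 h, and its BEAF-32 peak (score 138.03 at 0 h) was absent at both treated times. The fifth, 2L:8374023-8374829, had CP190 at 187.6 at 0 h only, with BEAF-32 at 787.58 at 0 h and at the ceiling later. BEAF-32 was thus present at both treated times in 4 of these 5 regions.

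The untreated percentile of CP190 accompanied its presence later. The CP190 peaks had a median percentile of 31.2 in the 553 regions with CP190 at 48 h and of 9.34 in the 147 without. The untreated BEAF-32 percentile did not separate them, with medians of 53.1 and 56.2. Nor did the distance to the nearest region of any make-up, with medians of 2404 and 2282 bp. All 100 regions with CP190 between percentiles 50 and 75, and the 4 above, had it at 3 and 48 h. Between percentiles 25 and 50, 266 of 267 had it at 3 h and 243 (91.0%, 87.0 to 93.9) at 48 h. At percentile 25 or below, 280 of 329 (85.1%, 80.9 to 88.5) had it at 3 h and 206 (62.6%, 57.3 to 67.7) at 48 h.

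Other kinds of region with CP190 had it at 48 h both more and less often than the 700, and no difference between kinds was tested. CP190 was present at 48 h in 88.8% (87.1 to 90.4) of the regions with CP190 and Su(Hw) only and in 87.1% (82.2 to 90.7) of those with CP190 and dCTCF only, both above the 79.0% of the 700. In the 607 regions with CP190 alone it was present in 73.5% (69.8 to 76.8), below the 700. At percentile 25 or below, the shares were 67.1% (62.5 to 71.3) of 428 regions with Su(Hw) and 54.5% (41.5 to 67.0) of 55 regions with dCTCF, beside the 62.6% above, with overlapping intervals. For CP190 alone it was 52.1% (46.5 to 57.7) of 305, with a median percentile of 10.5 beside 12.2 in the 329 of the 700. Between percentiles 25 and 50 the share was 95.3% (92.8 to 97.0) of 403 regions with Su(Hw), beside 91.0% (87.0 to 93.9) of the 700, 90.9% (80.4 to 96.1) of 55 with dCTCF and 92.8% (88.3 to 95.7) of 195 with CP190 alone.

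The presence of CP190 at 48 h differed little with the untreated rank of BEAF-32. It was 80.0% (73.6 to 85.2) of the 180 regions with BEAF-32 at percentile 25 or below and 81.25% (74.1 to 86.8) of the 144 between 25 and 50. It was 74.3% (65.4 to 81.6) of the 109 between 50 and 75 and 79.0% (73.7 to 83.5) of the 267 at the ceiling, so that all 4 intervals overlapped. By arm the share lay between 74.8% (66.5 to 81.6) on 2L and 80.9% (73.5 to 86.6) on X, with overlapping intervals, leaving aside arm 4 with 2 of 3. When the 3 h BEAF-32 list took the place of the 0 h list in choosing regions, an alternative added after the data were seen, 1006 regions were found and 77.6% had CP190 at 48 h.

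**Figure D4:**
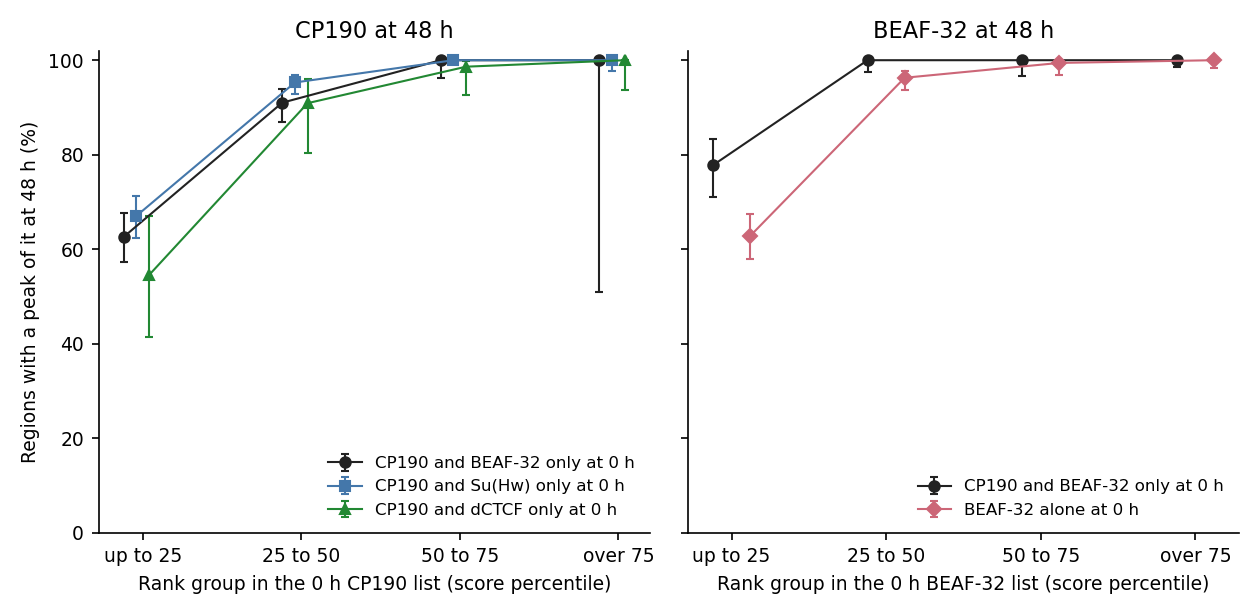
Share of regions (%) with CP190 (left) or BEAF-32 (right) at 48 h, by the score percentile of that protein in its untreated list, for the 700 regions and for other kinds that held it; lines only join the groups, and bars are 95% Wilson intervals. At percentile 25 or below, CP190 was present in 62.6% of the 700 regions' group and BEAF-32 in 77.8%, and in both panels the shares were near 100% above percentile 50.

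BEAF-32 was present later wherever its untreated peak was not weak. All 144 regions with BEAF-32 between percentiles 25 and 50, all 109 between 50 and 75 and all 267 at the ceiling had it at 3 h and at 48 h. At percentile 25 or below, 143 of 180 (79.4%, 73.0 to 84.7) had it at 3 h and 140 (77.8%, 71.2 to 83.2) at 48 h. Where BEAF-32 stood alone before hormone, the shares at percentile 25 or below were lower, with 247 of 387 (63.8%, 58.9 to 68.5) at 3 h and 243 (62.8%, 57.9 to 67.5) at 48 h. The median percentiles of these weak peaks were close, at 11.7 in the 700 and 11.3 for BEAF-32 alone. Most of the gap lay among the weakest peaks: up to percentile 12.5, the shares at 48 h were 77.3% (68.0 to 84.5) of 97 regions and 56.1% (49.4 to 62.6) of 214. From 12.5 to 25 they were 78.3% (68.3 to 85.8) of 83 and 71.1% (63.9 to 77.3) of 173, with overlapping intervals. The difference between both kinds was not tested.

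In the treated BEAF-32 lists these regions stood at the score ceiling about as often as all regions with BEAF-32 at 0 h. That set included the 700, and between untreated percentiles 25 and 75 the 700 stood there more often. Of the 663 with BEAF-32 at 3 h, 494 (74.5%, 71.1 to 77.7) had a peak at the ceiling, beside 2709 of 3739 (72.5%) of all untreated BEAF-32 regions with a peak at 3 h. At 48 h it was 485 of 660 (73.5%, 70.0 to 76.7), beside 2677 of 3724 (71.9%). By untreated BEAF-32 percentile, the shares at the ceiling at 3 h were 7.22% (4.27 to 11.96) of the 180 regions at 25 or below, beside 9.66% of all 1014 such regions. Between 25 and 50 they were 72.9% (65.1 to 79.5) of 144, beside 55.6% of 1027. Between 50 and 75 they were 100% of 109, beside 92.1% of 593, and above 75 they were 100% of 267, beside 99.8% of 1497. The interval of the 700 held the share of all regions in the lowest and highest groups and lay above it in the middle ones. For CP190 the ceiling was rare at every time, with 7 of 650 regions (1.08%) at 3 h, beside 23.3% of the list, and 3 of 553 (0.542%) at 48 h, beside 20.8%.

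The BEAF-32 absences were led by X:18649096-18650532, where BEAF-32 scored 296.32 at 0 h and was absent at 3 and 48 h. CP190 scored 101.81, 168.44 and 185.42 there, and dCTCF had a peak at 48 h (score 153.09). At 2L:20895631-20896860 BEAF-32 scored 283.41 at 0 h only, and CP190 scored 194.09 at 0 h and 158.41 at 3 h. At 2L:20303115-20304278 BEAF-32 scored 241.33 at 0 h only, CP190 scored 181.23 at 0 h and 105.86 at 48 h, and dCTCF had peaks at 3 h (score 148.08) and 48 h (score 108.24). The fourth, 3R:9343298-9345921, had BEAF-32 at 228.35 at 0 h only, with CP190 scores of 595.21, 943.23 and 1896.12. The fifth was the widest region, 2R:3151027-3156914, with BEAF-32 at 216.16 at 0 h only and CP190 at 1345.46, 2639.23 and 1325.63. These 5 regions led at both treated times.

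The weak BEAF-32 sites that were absent at 48 h often stood far from other regions of this make-up, a comparison chosen after its values were seen. Among the 180 regions with BEAF-32 at percentile 25 or below, 21 of the 40 without it at 48 h (52.5%, 37.5 to 67.1) lay over 100 kb from the nearest such region, against 28 of the 140 with it (20.0%, 14.2 to 27.4). The lowest 25% of distances ended at 3956 bp without it and at 7883 bp with it, so a part of the former lay close to another such region. Their median BEAF-32 peak width was 808.5 bp, against 576.5 bp, and their median BEAF-32 percentile 10.7, against 11.7. A region of any make-up was near both groups, at a median of 3616 bp from the 40 without BEAF-32 at 48 h and 2494.5 bp from the 140 with it.

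Su(Hw) and dCTCF, absent by the choice of the regions, appeared in a minority of them after hormone. Su(Hw) had a peak in 61 of the 700 (8.71%, 6.84 to 11.0) at 3 h and in 56 (8.0%, 6.21 to 10.2) at 48 h. Among all untreated regions without Su(Hw), 9.24% and 9.41% had one, so the shares of the 700 were near this pooled background. The background mixed unlike kinds. Su(Hw) was in 4.78% and 5.11% of the regions with CP190 alone and in 4.53% and 3.90% of those with BEAF-32 alone. It was in 15.0% and 27.5% of those with CP190 and dCTCF only. dCTCF had a peak in 79 of the 700 (11.3%, 9.15 to 13.8) at 3 h and in 31 (4.43%, 3.14 to 6.22) at 48 h. Among all untreated regions without dCTCF the shares were 6.79% and 2.79%, below both intervals. The dCTCF list was shorter at 48 h than at 3 h. With all lists cut to 3333 peaks, the order of the times turned round. Of the 298 regions then found, 16.8% had dCTCF at 3 h and 25.8% at 48 h, and none had Su(Hw) at either time. That cut shortened the dCTCF lists of 4003 peaks at 0 h and 4085 at 3 h but not the 48 h list. Regions whose 0 h dCTCF peak was dropped were not counted, and the part of the cut in this order was not tested. With the top 50% of each list, which also dropped 0 h dCTCF peaks, the order held. There dCTCF was in 11.9% at 3 h and 2.70% at 48 h of 370 regions.

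These newly listed partner peaks were weak in their own lists. The median percentile was 9.09 for Su(Hw) at 3 h, 9.05 at 48 h, 10.8 for dCTCF at 3 h and 11.2 at 48 h. Only 1 of them, a Su(Hw) peak at 48 h, stood in the upper 50% of its list. Few had an untreated peak of the same protein within 1 kb: 4 of 61 and 7 of 56 for Su(Hw), and 4 of 79 and 1 of 31 for dCTCF. Few of the 700 had such a peak at all. At 48 h Su(Hw) was in 7 of the 36 regions with one (19.4%, 9.75 to 35.0). It was in 49 of the 664 without (7.38%, 5.63 to 9.62). For Su(Hw) at 3 h and dCTCF at both times, the intervals with and without one overlapped. Most lay where CP190 and BEAF-32 were still listed, with CP190 at 76 and BEAF-32 at 77 of the 79 dCTCF peaks at 3 h. This was near the shares over all 700 at 3 h, 92.9% for CP190 and 94.7% for BEAF-32. Of the 61 regions with Su(Hw) at 3 h, 58 had CP190 and 61 had BEAF-32. At 48 h CP190 was in 50 of the 56 regions with Su(Hw) and 29 of the 31 with dCTCF, beside 79.0% of the 700. BEAF-32 was in 55 and 28 of them, beside 94.3% of the 700. These differences were not tested. For Su(Hw), 24 regions held it at both treated times, 39.3% of those at 3 h and 42.9% of those at 48 h. For dCTCF it was 12 regions, 15.2% of those at 3 h and 38.7% of those at 48 h. At 1 treated time or both, 166 of the 700 (23.7%, 20.7 to 27.0) held Su(Hw) or dCTCF. This share was not counted over all untreated regions lacking both proteins, so the total is not read as a trait of the 700.

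The strongest new Su(Hw) peak lay at 3R:2335654-2340755 at 48 h (score 1429.14). CP190 scored 852.61, 1509.88 and 2234.89 there, and BEAF-32, at 113.47 at 0 h, had no peak later. At 2L:19586633-19587681 Su(Hw) scored 138.55 at 3 h and 429.37 at 48 h, with CP190 at 436.97, 551.38 and 167.72. At 3 h the leading Su(Hw) peak was at 3R:8233638-8234449, with 493.96 at 3 h and 119.08 at 48 h, where CP190 scored 288.3, 485.14 and 367.95. Next came 2L:2375427-2376502, with Su(Hw) at 452.97 and dCTCF at 108.68 at 3 h and neither at 48 h, when CP190 was also absent. BEAF-32 was at the ceiling at that region at all 3 times.

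The strongest new dCTCF peak at 3 h lay at X:5565449-5567069 (score 258.81) and was absent at 48 h. CP190 scored 588.52, 1193.34 and 393.52 there, with BEAF-32 at the ceiling throughout. At X:537921-539207 dCTCF scored 229.41 at 3 h only, and at 3L:4107676-4108723 it scored 224.07 at 3 h only. At 48 h the leading dCTCF peak was at 3R:19862842-19864405 (score 252.95), absent at 3 h, when Su(Hw) had a peak instead (score 109.68). Next came 2R:2147991-2149464, with dCTCF at 251.47 at 48 h only, and CP190 scores of 455.45, 1280.94 and 964.55. At 3R:7788008-7789368 dCTCF scored 110.87 at 3 h and 248.68 at 48 h and Su(Hw) 120.83 and 134.91, so that all 4 proteins were listed at both treated times. At X:22022974-22024536 dCTCF scored 223.92 at 48 h only, where BEAF-32 (score 172.75 at 0 h) was absent at 3 and 48 h. At 3L:20778631-20780034 dCTCF scored 112.49 at 3 h and 197.6 at 48 h, and Su(Hw) joined at 48 h (score 280.6).

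The same make-up was more common after hormone. Applied to the 3 h lists, the rule gave 1195 of 12699 regions (9.41%), and applied to the 48 h lists 1087 of 12708 (8.55%), beside 700 of 11734 (5.97%) at 0 h. Of the 1195, 487 (40.8%) overlapped one of the 700, and of the 1087, 450 (41.4%). Of the other 708 regions at 3 h, 270 (38.1%) lay on regions with CP190 alone at 0 h and 155 (21.9%) on regions with BEAF-32 alone. At 48 h, 222 of 637 (34.9%) lay on CP190 alone, 120 (18.8%) on CP190, dCTCF and BEAF-32, and 78 (12.2%) on BEAF-32 alone. The BEAF-32 arm list was longer at both treated times, and its part in these counts was not tested. Of the 607 regions with CP190 alone at 0 h, 344 (56.7%, 52.7 to 60.6) had a BEAF-32 peak at 3 h and 326 (53.7%, 49.7 to 57.6) at 48 h. The shares were 39.2% and 38.3% of the regions with CP190 and dCTCF only. They were 6.35% and 6.07% of those with CP190 and Su(Hw) only. The share over all untreated regions without BEAF-32 was not counted.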

How the data were processed

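ChIP-seq of 4 proteins at 3 times gave 12 libraries, each with 1 deposited peak list, and 2 input libraries were not analysed here. The submitters' processing notes name Bowtie 0.12.5 as the aligner. Peak names carry the MACS prefix, per the files themselves. Neither the build nor the caller's version, settings and control is stated in the sources used. The score per peak is the authors' deposited value, of undefined scale, and was used only within its own list. Depth is unknown, and 1 library per group leaves no replicate error.

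Starts were moved to count from 1. U, Uextra, names ending in Het and the mitochondrial genome were left out. A treated peak counted when it overlapped the merged region by 1 bp. Percentiles give ties, and all scores from 3100 up, their mean rank. A region with more than 1 peak of a protein took its highest. Named regions were taken in the order of a rule: the 5 highest by the lower percentile, by untreated percentile among absences, and by score among new partner peaks, with the longest run and the extremes of width and overlap. Regions, rules and alternatives were chosen with earlier results of these data known. Gene positions and motifs were planned for an annotation and genome of the lists' build and were not run. Merging and overlap counting were first tested on simulated peaks. Computation used Python 3.11.15, numpy 2.4.6, pandas 2.3.3, scipy 1.17.1 and matplotlib 3.10.9.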

Additional observations from a re-analysis of the deposited data

Results flagged for a closer look

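The sequences left out by the rule (U, Uextra, the pieces ending in Het and the mitochondrial genome) also held regions with CP190 and BEAF-32 only at 0 h, a signal outside the data used above. There were 111 of them among 2579 merged regions (4.30%), 104 on U or Uextra. CP190 was present in 89 of them (80.2%) at 3 h and 97 (87.4%) at 48 h, and BEAF-32 in 16 (14.4%) and 15 (13.5%). On the arms BEAF-32 was the protein more often present at 48 h, and on these sequences CP190 was. With 1 library each, the difference was not tested.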

How the results depend on the processing

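Of 120 alternative values, 90 stayed within the 95% interval of the value reported (for the number of regions, within 1.5 times), and 30 did not. CP190 stood below BEAF-32 at 48 h, and below its own share at 3 h, in every setting with both values. With the top 50% of each list, 370 regions remained, with a median width of 1297 bp and a median gap of 191853 bp. BEAF-32 was then in 100% at 3 h and 100% at 48 h, and CP190 in 73.2% at 48 h. Su(Hw) was in 0.541% at 3 h and 0% at 48 h, and dCTCF in 11.9% at 3 h and 2.70% at 48 h. With lists of equal length (3333 peaks), 298 regions were found, with a median width of 1189.5 bp and a median gap of 226993 bp. CP190 was in 83.2% at 3 h and 70.1% at 48 h, BEAF-32 in 99.0% and 98.3%, both at all times in 65.1%, Su(Hw) in 0% and 0%, and dCTCF in 16.8% and 25.8%. Shorter lists drop weak peaks by construction. With centres within 250 bp, BEAF-32 was in 96.4% and 96.1%. Counting treated peaks within 1 kb gave Su(Hw) in 14.4% and 12.3% and dCTCF in 14.9% and 7.29%, since a wider window can only add peaks. Choosing regions with the 3 h BEAF-32 list gave a median width of 1026 bp, a median gap of 47292 bp and BEAF-32 in 96.6% at 48 h; the cause was not tested. Peaks below the deposited score minimum of 100 cannot be seen, so an absent peak may be a weaker one. No paired analysis was possible because each protein and time had 1 library.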
